A study of Homo sapiens with 21 samples.

Results

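The small nucleolar RNA (snoRNA) host genes described here were SNHG1, SNHG5, SNHG6, SNHG7, SNHG8, SNHG12, SNHG15, SNHG16, GAS5 and ZFAS1. They were chosen by name, as 10 of the 28808 genes listed in the deposited tables, and 9 of the 10 passed the filter on low values. RNA sequencing measured them in C3A cells, a clone selected from the human hepatoma line HepG2 and labelled wild type, in 21 libraries of 6 groups. Unexposed cells, for which the labels name no treatment or vehicle, gave 6 libraries. Each exposure lasted 48 h and gave 3 libraries. The herbicide glyphosate was used at 5.6 µM, which is 0.95 µg/mL. AMPA, or aminomethylphosphonic acid, to which glyphosate is degraded, was used at 34 µM, which is 3.7 µg/mL. The synthetic auxin 2,4-D was used at 2.5 µM, which is 0.56 µg/mL, and the remaining groups had glyphosate with 2,4-D or AMPA with 2,4-D. In the mixtures each compound had the concentration used alone, 1000-fold below the half-maximal inhibitory concentration per the labels. All groups were the same hepatoma line, so no result below comes from a second line or from normal liver. The study asked what low concentrations of these compounds, alone and combined, change in the RNA of hepatic cells.

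SnoRNAs guide the chemical modification of ribosomal RNA: box C/D snoRNAs guide methylation of the ribose, and box H/ACA snoRNAs guide the change of uridine to pseudouridine. In human cells most are cut out of the introns of host genes, many of which encode ribosomal proteins or translation factors. The host genes of the SNHG kind have exons that code for no known long protein, and their spliced RNAs are, for several of them, degraded by nonsense-mediated decay (NMD) once ribosomes have met them. Several hosts, GAS5 among them, start their RNA with a C followed by a run of pyrimidines, the terminal oligopyrimidine (TOP) tract shared with ribosomal protein mRNAs, whose translation depends on the growth kinase mTOR. GAS5 was named for its rise in growth-arrested cells.

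The 10 hosts held 37 snoRNA genes in the RefSeq annotation, 28 of them box C/D and 8 box H/ACA. GAS5 (ENSG00000234741, chromosome 1, 173863900 to 173868882, minus strand; all deposited coordinates are GRCh38) held 11, and SNHG1 (ENSG00000255717, chromosome 11, 62851988 to 62855914, minus strand) held 9. SNHG12 held 4, SNHG16 and ZFAS1 held 3 each, and SNHG5 and SNHG7 held 2 each. SNHG6, SNHG8 and SNHG15 held 1 each, which were SNORD87, SNORA24 and SNORA9. The spliced host RNA was measured here far better than its snoRNAs: 4 snoRNA genes inside a member were listed in all tables, with 3 to 16 reads per library for SNORD12B and 1 to 14 for SNORD12C (both in ZFAS1), 0 to 9 for SNORD99 (in SNHG12) and 0 to 6 for SNORD1B (in SNHG16). No change of a snoRNA was read from such numbers.

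Sequences around the annotated start are shown for the 6 hosts that were called in at least 3 exposures and had a RefSeq entry, because the start base and the pyrimidines after it are what a TOP transcript is defined by. Each line gives 50 bases before the start and 20 from the start on, 5′ to 3′ on the strand of the gene, from RefSeq (GRCh38.p14). Capitals mark the start base with the unbroken C or T run after a starting C, and the letters TATAA where they occur within 40 bases before the start. The windows are chr1:28581854-28581923 on the minus strand (SNHG12), chr6:85678714-85678783 minus (SNHG5), chr20:49278592-49278661 plus (ZFAS1), chr4:118278712-118278781 plus (SNHG8), chr11:62855866-62855935 minus (SNHG1) and chr1:173869026-173869095 minus (GAS5).
SNHG12: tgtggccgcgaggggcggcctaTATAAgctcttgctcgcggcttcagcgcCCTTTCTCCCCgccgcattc
SNHG5: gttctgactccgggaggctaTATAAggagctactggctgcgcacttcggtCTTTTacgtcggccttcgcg
ZFAS1: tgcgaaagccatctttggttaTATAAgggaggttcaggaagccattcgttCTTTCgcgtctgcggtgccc
SNHG8: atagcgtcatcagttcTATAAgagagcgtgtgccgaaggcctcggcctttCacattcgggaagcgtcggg
SNHG1: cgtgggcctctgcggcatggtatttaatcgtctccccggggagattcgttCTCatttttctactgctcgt
GAS5: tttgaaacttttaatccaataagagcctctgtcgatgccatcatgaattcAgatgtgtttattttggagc

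Of the 8 hosts with a RefSeq entry, 3 (SNHG12, SNHG5 and ZFAS1) started with C followed by at least 4 pyrimidines, as did 60.3% of the 78 windows of ribosomal protein genes and 4.07% of all 35116 windows. In 5 of the 8 (SNHG12, SNHG8, SNHG5, SNHG7 and ZFAS1) the letters TATAA, searched on the strand of the gene, lay in the 40 bases before the start, against 8.97% of ribosomal protein windows and 4.34% of all windows. Both features stood together in 3 hosts and in 38 of all windows. RefSeq's start lay 163 bases upstream of the deposited gene start for GAS5, and 464 and 1259 bases downstream of it for ZFAS1 and SNHG12, so these letters describe RefSeq's start alone. The window of GAS5 starts with A and so does not show the TOP start named for GAS5 above. GAS5 is counted here among the hosts without a match. A match of letters is a description of the window, not a measured start or a bound factor.

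The depth was 15.2 to 24.35 M recovered reads per library. The deposited values were FPKM, fragments scaled to exon length and to a library total whose derivation is not given in the sources used here. For exposed cells the total implied by FPKM was 0.942 to 1.01 of the recovered reads, against 1.03 to 1.08 for unexposed cells. Where it was under 1, that total was not a plain count of reads. Changes on the FPKM scale carry this difference, and a rescaling by summed FPKM is given below. The hepatocyte identity of the line was seen in all 12 of its markers, each with a mean of at least 1 FPKM, which summed to 8134 to 12200 FPKM in unexposed and 12041 to 14124 in exposed libraries. By the test described below, 7 or 8 of the 12 were called higher and 3 lower in each exposure (25 to 28% and 22.6 to 25.1% of all genes). In unexposed replicates 4 to 6, 9 were already higher than in 1 to 3 and 0 lower (15.7% and 15.9% of all genes). Fibroblast markers summed to at most 2.78 FPKM, nearly all from PDGFRB, and endothelial markers to at most 0.200. Of the blood cell markers, LYZ stood at 324 to 625.4 FPKM, CD14, HBA1 and HBB stayed under 1 in every library, and CD3E and PTPRC were not in all tables. The part that such differences in marker levels have in the results below was not tested. The unexposed libraries fell into replicates 1 to 3 and replicates 4 to 6: the squared distance per gene, in units of counting noise, was 29.9 to 41.5 between these sets and 3.58 to 6.02 within them. For exposed libraries it was 59.7 to 111 to the first set and 27.3 to 62.2 to the second. The labels name no batch, so exposure and any batch common to the exposed libraries cannot be told apart, and each host is given beside both sets. Neither do the labels say whether replicates were separate cultures, so p-values measure the spread between these libraries. In such bulk samples fewer cells of a kind and less RNA per cell cannot be told apart.

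FPKM is per base of exon, and the length used was the union of all annotated exons of each gene. This union was 923 bases for SNHG8 and 3631 for GAS5, so the order of the hosts rests on such lengths. In reads per unexposed library SNHG8, at 2395 to 2813, lay below GAS5, at 4270 to 5431. SNHG8 had the highest FPKM of the hosts in unexposed cells, at 145 ± 5.59 FPKM (SD, n = 6). SNHG6 (69.1 ± 3.20), GAS5 (68.8 ± 2.88), SNHG5 (67.7 ± 2.31) and ZFAS1 (66.4 ± 2.96) followed with overlapping ranges, so their order is not resolved. SNHG1 (51.6 ± 7.81), SNHG7 (38.1 ± 5.61) and SNHG16 (37.1 ± 3.86) came next, again with ranges that overlap between neighbours. SNHG12 stood at 5.04 ± 0.467 FPKM. SNHG15 (ENSG00000232956, chromosome 7, 44983023 to 44986961) had 0 to 4 reads per library and 0 reads in 14 of the 21, with at most 0.0740 FPKM. Since 3 reads would have been 0.0399 FPKM in the first unexposed library, differences of SNHG15 within this range of counts could not be read. In no group did it rise above 4 reads in a library. The other hosts rested on 337 or more reads in every library, and on 1320 or more apart from SNHG12.

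**Figure D1:**
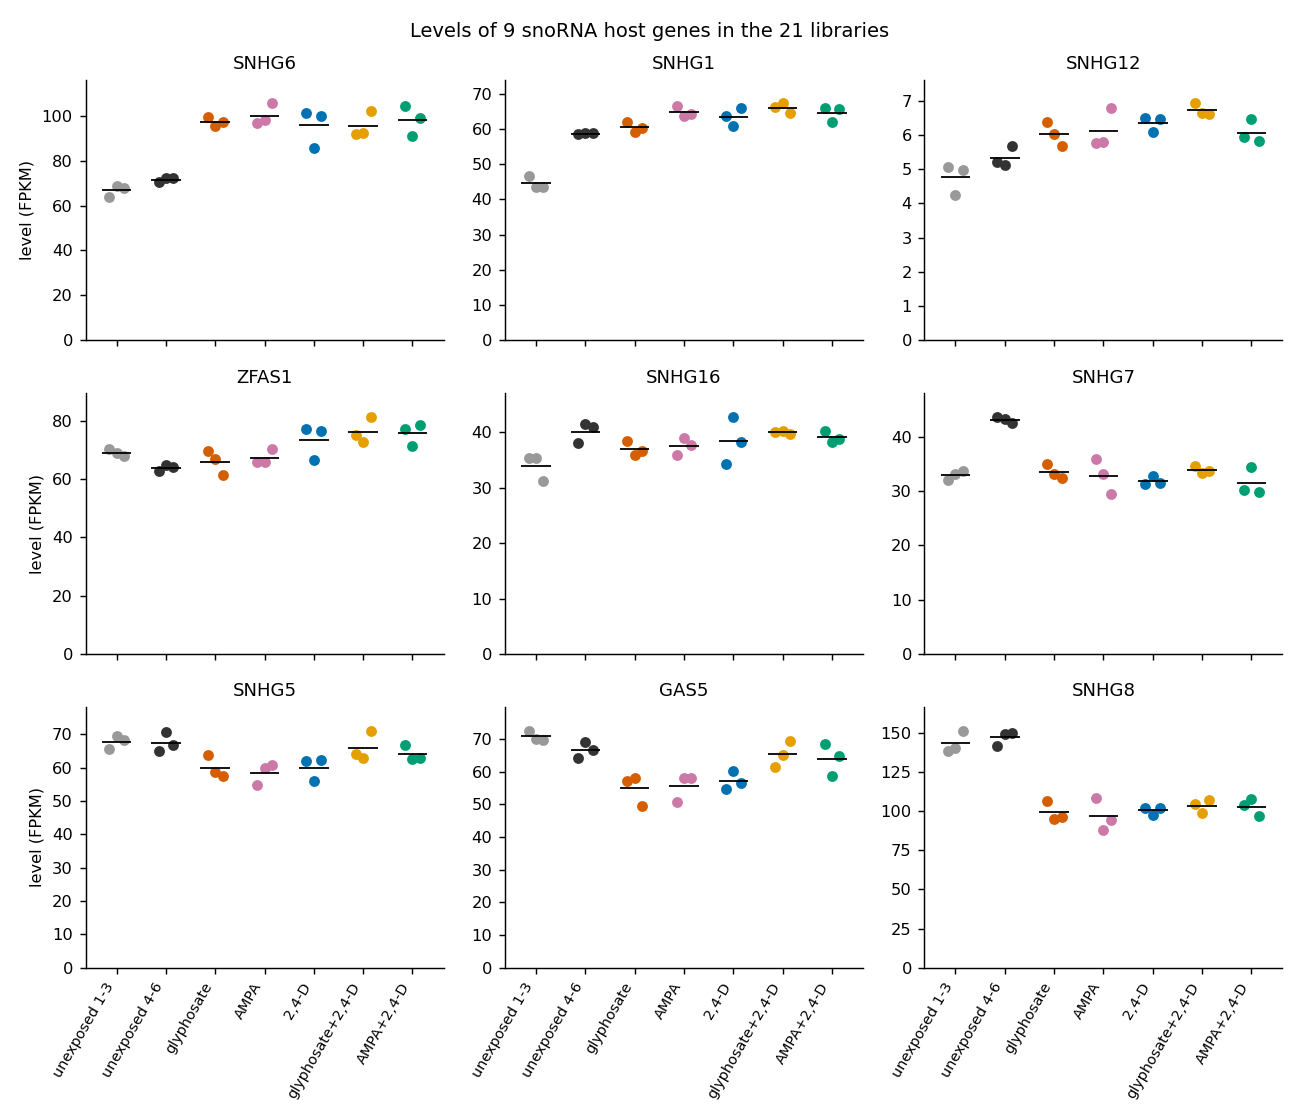
Levels of the 9 tested host genes in FPKM (vertical axis, from 0) in each of the 21 libraries, with the unexposed libraries parted by replicate number; each point is a library and each bar the mean of 3. SNHG6 lies between 85.7 and 105 FPKM in exposed libraries and at 72.1 or below in unexposed ones, SNHG8 lies at 109 or below in exposed and 139 or above in unexposed libraries, and SNHG1 and SNHG7 differ between the unexposed sets.

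Each exposure was set against the 6 unexposed libraries by limma on log2(FPKM + 1), and the hosts split between higher and lower. With glyphosate 3 of the 9 tested hosts were called higher and 3 lower (Benjamini-Hochberg adjusted p under 0.05 over all genes tested), where 27.7% and 25.1% of all genes tested were (52.7% in either direction). AMPA gave 3 higher and 3 lower (28% and 24.8% of all genes, 52.8% together), and 2,4-D gave 4 and 4 (25% and 22.6%, 47.6% together). Glyphosate with 2,4-D gave 4 and 1 (25.4% and 22.7%, 48.1% together) and AMPA with 2,4-D gave 4 and 2 (26% and 24.4%, 50.4% together). Groups did not overlap for 5, 6, 6, 5 and 5 hosts in that order, beside 45.5%, 44.4%, 39.7%, 40.4% and 39.3% of all genes. With 9 hosts these shares do not set them apart from all genes, and the highest, 8 of 9 with 2,4-D, was 5 when the compared groups were fitted alone. SNHG6, SNHG1 and SNHG12 were called higher in all 5 exposures, as were 18.2% of all genes, and SNHG8 was called lower in all 5, as were 15.4%. The 5 comparisons share the 6 unexposed libraries, so a call repeated over exposures is not 5 separate observations. The median change of the hosts ran from -0.01 to 0.11, beside 0.00 to 0.01 over all genes.

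SNHG6 rose and SNHG8 fell in all 5 exposures, and these were the hosts with the largest changes. SNHG6 (ENSG00000245910, chromosome 8, 66921684 to 66926398, minus strand), host of the C/D snoRNA SNORD87, stood at 63.6, 68.7 and 67.7 FPKM in unexposed replicates 1 to 3 and at 70.3, 72.1 and 72.1 in replicates 4 to 6. With glyphosate it stood at 99.6, 95.4 and 97.1 FPKM, with AMPA at 96.8, 97.9 and 105, and with 2,4-D at 101, 85.7 and 99.98. Glyphosate with 2,4-D gave 91.8, 92.5 and 102 FPKM, and AMPA with 2,4-D gave 104, 91.2 and 98.8. Every exposed library thus lay above every unexposed one. Changes on the log2(FPKM + 1) scale, used for all changes below, were 0.46 to 0.53 (SE 0.06), or 1.38 to 1.45 times the unexposed mean, with limma adjusted p (Benjamini-Hochberg over all genes tested) of at most 4.44e-06.

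SNHG8 (ENSG00000269893, chromosome 4, 118278709 to 118279823, plus strand), host of the H/ACA snoRNA SNORA24, stood at 139, 141 and 152 FPKM in unexposed replicates 1 to 3 and at 142, 149.8 and 150.1 in replicates 4 to 6. With glyphosate it stood at 107, 94.9 and 96.5 FPKM, with AMPA at 109, 88.3 and 94.4, and with 2,4-D at 102, 97.5 and 102. The mixtures gave 105, 98.6 and 107 FPKM (glyphosate with 2,4-D) and 104, 108 and 96.8 (AMPA with 2,4-D). Every exposed library lay below every unexposed one. The changes ran from -0.58 to -0.49 (SE 0.06), which is 0.668 to 0.711 of the unexposed mean, with a limma adjusted p of at most 2.04e-06. Of all 13405 genes tested, 13.8% had all 15 exposed libraries above all 6 unexposed ones and 11.6% had them below, so separation of this kind was common in these data.

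A ratio within a library is free of how libraries are scaled. SNHG6 over SNHG8, a ratio chosen after the values were seen and so given with no test, was 0.475 ± 0.0186 in unexposed cells (SD, n = 6; 0.447 to 0.495). It was 0.970 ± 0.0797 over the 15 exposed libraries (SD; 0.847 to 1.12). The group means ran from 0.922 with glyphosate and 2,4-D to 1.04 with AMPA. The unexposed sets, 0.447 to 0.489 and 0.480 to 0.495, overlapped in this ratio, and no exposed library came near either. SNHG6 and SNHG8 thus changed unequally whatever the scaling, which does not show by itself which of them moved. Exons of MCMDC2 on the opposite strand cover 29.3% of the exon bases of SNHG6, and MCMDC2 stood at 0.0524 to 0.755 FPKM. The strand of the libraries is not stated in the labels, so reads in this overlap cannot be assigned. The snoRNA genes lie in part within exons of the gene models, at 7.14% of the exon bases for SNORD87 in SNHG6 and 14.2% for SNORA24 in SNHG8. Whether reads of snoRNA or unspliced RNA there were counted for the host or left out is not given in the sources used here.

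SNHG1 and SNHG12 also rose in all 5 exposures, by less. SNHG1, whose 8 C/D snoRNAs include SNORD25 to SNORD31, stood at 46.5, 43.7 and 43.4 FPKM in unexposed replicates 1 to 3 and at 58.5, 58.7 and 58.7 in replicates 4 to 6. With glyphosate it stood at 62.1, 59.2 and 60.2 FPKM, with AMPA at 66.6, 63.7 and 64.3, and with 2,4-D at 63.8, 60.8 and 65.9. Glyphosate with 2,4-D gave 66.1, 67.3 and 64.5 FPKM, and AMPA with 2,4-D gave 65.98, 62.1 and 65.7. All exposed libraries lay above all unexposed ones, but replicates 4 to 6 came within 1 FPKM of the lowest exposed library. The change was 0.24 to 0.36 (SE 0.09, limma adjusted p 0.00223 to 0.0279) against all 6 unexposed libraries. Against replicates 1 to 3 it was 0.43 to 0.56 (SE 0.04), and against replicates 4 to 6 it was 0.04 to 0.17, with 4 of 5 exposures called and glyphosate, at 0.04, not called (limma adjusted p 0.327). The glyphosate call also ended without any 1 of unexposed replicates 1, 2 or 3 or of glyphosate replicates 1, 2 or 3 (0.19 to 0.25, limma adjusted p 0.0533 to 0.0909). With only the compared groups in the fit, the calls with glyphosate (0.24, limma adjusted p 0.118) and 2,4-D (0.31, 0.0619) both ended.

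SNHG12 (ENSG00000197989, chromosome 1, 28578538 to 28583132, minus strand), host of 3 H/ACA snoRNAs and SNORD99, stood at 5.05, 4.23 and 4.98 FPKM in unexposed replicates 1 to 3 and at 5.21, 5.13 and 5.67 in replicates 4 to 6. The 15 exposed libraries ran from 5.66 to 6.92 FPKM, highest with glyphosate and 2,4-D at 6.92, 6.64 and 6.61. Its only overlap with unexposed cells was with glyphosate, whose replicate 3 (5.66) lay just under unexposed replicate 6. Changes were 0.22 to 0.36 (SE 0.06, limma adjusted p 0.000140 to 0.00675). Against replicates 4 to 6 alone they were 0.15 to 0.29, called in 4 of 5 exposures. At 337 reads in the shallowest library, counting alone gives SNHG12 a spread of 5.45%, the widest of the tested hosts.

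GAS5 and SNHG5 fell with each single compound and were not called with either mixture. GAS5 stood at 72.6, 70.1 and 69.8 FPKM in unexposed replicates 1 to 3 and at 64.4, 69.003 and 66.7 in replicates 4 to 6. With glyphosate it stood at 57.1, 58.1 and 49.5 FPKM, with AMPA at 50.8, 58.1 and 58.1, and with 2,4-D at 54.7, 60.4 and 56.6. All 9 of these libraries lay below all 6 unexposed ones. Glyphosate with 2,4-D gave 61.6, 65.0 and 69.5 FPKM, and AMPA with 2,4-D gave 68.5, 58.8 and 64.7, both overlapping unexposed cells. The single compounds changed GAS5 by -0.32, -0.30 and -0.26 (SE 0.06, limma adjusted p 0.000292, 0.000546 and 0.00214), and these calls held against each unexposed set. The mixtures differed from unexposed cells by -0.07 (95% interval -0.20 to 0.06) and -0.10 (-0.23 to 0.03), with limma adjusted p of 0.356 and 0.180. Both mixtures lay below replicates 1 to 3 without overlap, as did 29.7% and 28.1% of all genes. They were not called against that set (-0.12 and -0.15, limma adjusted p 0.166 and 0.0799). With replicates 4 to 6 both overlapped (-0.03 and -0.06, not called).

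SNHG5 (ENSG00000203875, chromosome 6, 85660950 to 85678748, minus strand), host of SNORD50A and SNORD50B, stood at 65.5, 69.6 and 68.3 FPKM in unexposed replicates 1 to 3 and at 65.0, 70.9 and 66.7 in replicates 4 to 6. It stood at 63.9, 58.7 and 57.5 FPKM with glyphosate, 54.9, 59.8 and 60.9 with AMPA, and 61.98, 55.97 and 62.2 with 2,4-D. These 9 libraries also lay below all unexposed ones. With glyphosate and 2,4-D it stood at 64.0, 62.9 and 71.1 FPKM and with AMPA and 2,4-D at 66.8, 62.7 and 62.98, overlapping the unexposed range. Changes were -0.17, -0.21 and -0.17 with the single compounds (SE 0.05, limma adjusted p 0.00847, 0.00219 and 0.00954), and -0.04 and -0.08 with the mixtures (0.581 and 0.227). The glyphosate call ended without glyphosate replicate 3 (-0.14, limma adjusted p 0.0592) and the 2,4-D call without 2,4-D replicate 2 (-0.12, 0.0838).

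ZFAS1 (ENSG00000177410, chromosome 20, 49278178 to 49295738, plus strand), host of the SNORD12 family and transcribed away from the gene ZNFX1, rose in the 3 exposures that contain 2,4-D. It stood at 70.2, 68.8 and 67.7 FPKM in unexposed replicates 1 to 3 and at 62.7, 64.9 and 63.97 in replicates 4 to 6. With 2,4-D it stood at 77.2, 66.4 and 76.5 FPKM, with glyphosate and 2,4-D at 74.95, 72.6 and 81.2, and with AMPA and 2,4-D at 77.2, 71.3 and 78.5. Glyphosate alone gave 69.5, 66.7 and 61.2 FPKM and AMPA alone 65.9, 65.8 and 70.1, within or near the unexposed range. Both mixtures lay above all unexposed libraries, while 2,4-D alone overlapped through its replicate 2. The changes were 0.14, 0.20 and 0.19 (SE 0.06, limma adjusted p 0.0471, 0.00734 and 0.00992) in that order, and -0.01 and 0.02 with glyphosate and AMPA alone. Against replicates 4 to 6 alone the changes were 0.19, 0.25 and 0.24, all called. Against replicates 1 to 3 alone they were 0.09, 0.14 and 0.13, with glyphosate and 2,4-D called higher (limma adjusted p 0.230, 0.0472 and 0.0637). In a separate fit without replicates 4 to 6 the changes were the same and 0 were called (limma adjusted p 0.262, 0.0636 and 0.0829). The 2,4-D call ended with the compared groups fitted alone (limma adjusted p 0.0901), with no filter on low values (0.0662), without 2,4-D replicate 1 or 3, or without unexposed replicate 3, 4, 5 or 6, and the call of each mixture ended without its replicate 3. ZNFX1 exons on the opposite strand cover 11.1% of the exon bases of ZFAS1, and ZNFX1 stood at 3.76 to 4.83 FPKM.

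SNHG7 and SNHG16 differed between the unexposed sets more than between exposed cells and all 6 unexposed libraries. SNHG7 (ENSG00000233016, chromosome 9, 136721366 to 136728184, minus strand), host of SNORA17A and SNORA17B, stood at 32.1, 33.1 and 33.7 FPKM in unexposed replicates 1 to 3 and at 43.6, 43.3 and 42.6 in replicates 4 to 6. The 15 exposed libraries ran from 29.4 to 35.9 FPKM, around the first set and below the second. The change against all unexposed libraries was -0.26 to -0.15 (SE 0.09), called lower with 2,4-D (limma adjusted p 0.0434) and with AMPA and 2,4-D (0.0275). Against replicates 1 to 3 it was -0.07 to 0.04 with 0 of 5 exposures called, and against replicates 4 to 6 it was -0.45 to -0.34 with 5 of 5 called lower. The direction of SNHG7 thus rests on which unexposed libraries it is set against. With only the compared groups in the fit both calls ended (limma adjusted p 0.118 and 0.104), as did the call with 2,4-D with no filter on low values (0.0680). The call with 2,4-D also ended without unexposed replicate 4, 5 or 6 or any 2,4-D library, and that with AMPA and 2,4-D without unexposed replicate 4, 5 or 6 or replicate 1 or 3 of the mixture. Leaving out unexposed replicate 1, 2 or 3, or AMPA replicate 1, added a lower call with AMPA.

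SNHG16 (ENSG00000163597, chromosome 17, 76557766 to 76565348, plus strand), host of SNORD1A, SNORD1B and SNORD1C, stood at 35.3, 35.4 and 31.3 FPKM in unexposed replicates 1 to 3 and at 38.0, 41.5 and 40.9 in replicates 4 to 6. Exposed libraries ran from 34.3 to 42.8 FPKM, overlapping both sets. It was called in 0 of 5 exposures, at 0.00 to 0.11 (SE 0.07). Against replicates 1 to 3 it was 0.12 to 0.23 higher, called in the 3 exposures with 2,4-D, and against replicates 4 to 6 it was -0.11 to 0.00 with no call. Exons of AC015802.6 (at most 0.435 FPKM) cover 30.6% of the exon bases of SNHG16 on the opposite strand, and exons of FAM69B (at most 0.263 FPKM) cover 25.2% of those of SNHG7.

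**Figure D2:**
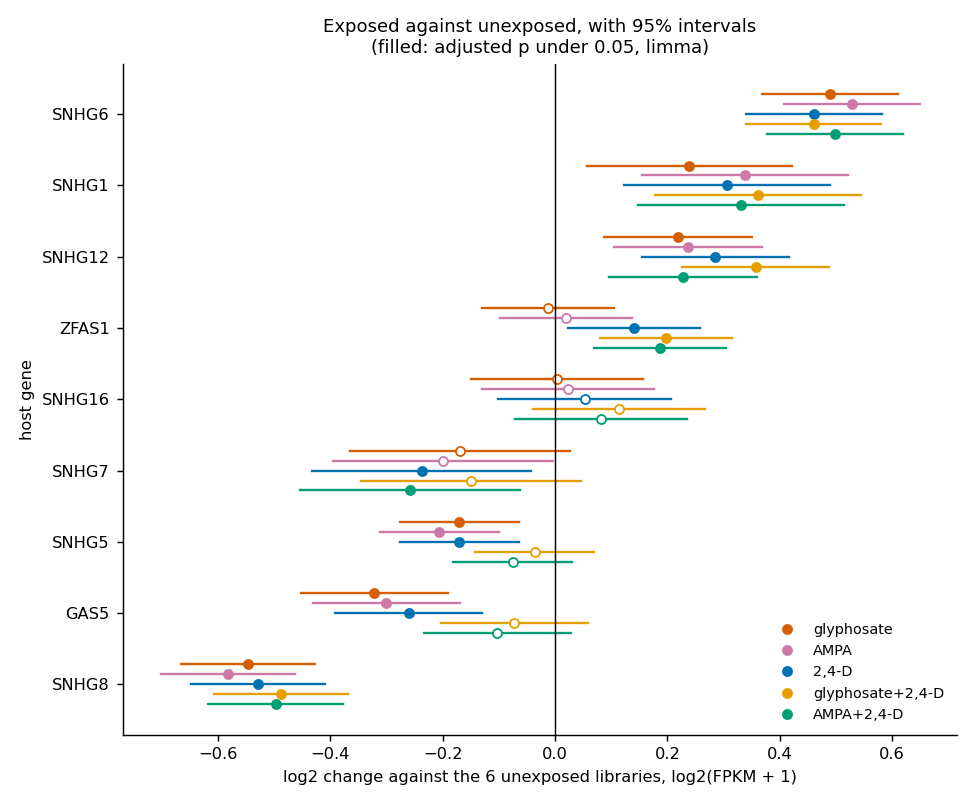
Change of each tested host gene in each exposure against the 6 unexposed libraries on the log2(FPKM + 1) scale, with 95% intervals; colours are exposures and filled points have a limma adjusted p under 0.05. SNHG6 lies at 0.46 to 0.53 and SNHG8 at -0.58 to -0.49 in all 5 exposures, while GAS5 and SNHG5 are called with the single compounds alone and ZFAS1 in the exposures that contain 2,4-D.

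The sum of FPKM was higher in every exposed library (294984 to 327953) than in every unexposed one (276823 to 294902), so the scale chosen matters for small changes. Rescaling to TPM, which divides each library by that sum, moved the median of the same genes to between -0.14 and -0.08. Higher genes made up 51.7 to 53.1% of all calls on the FPKM scale and 29.8 to 37.6% on the TPM scale. Host calls, higher and lower, were then 1 and 4 with glyphosate, 1 and 5 with AMPA, 3 and 4 with 2,4-D, 3 and 4 with glyphosate and 2,4-D, and 2 and 4 with AMPA and 2,4-D. Of all genes, 19.8% and 33%, 16.4% and 38.7%, 17.2% and 30.8%, 15.9% and 34.5%, and 16.9% and 34% were called higher and lower on that scale, in the same order. SNHG6 and SNHG8 kept their direction and call in all 5 exposures. SNHG1 and SNHG12 were no longer called with glyphosate and AMPA, at 0.14 and 0.18 for SNHG1 and 0.15 and 0.11 for SNHG12, nor was SNHG12 with AMPA and 2,4-D (0.15). The calls of ZFAS1 with 2,4-D and both mixtures ended (0.04, 0.07 and 0.07), and ZFAS1 was called lower with AMPA (-0.15, limma adjusted p 0.0287). SNHG7 was then also called lower with glyphosate, AMPA, and glyphosate with 2,4-D. GAS5 and SNHG5 were called lower with the mixtures too, by -0.21 and -0.22 for GAS5 and -0.17 and -0.19 for SNHG5, so that on this scale both fell in all 5 exposures.

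Set 4 to 6 against set 1 to 3 of the unexposed libraries, 3 of the 9 hosts were called higher and 0 lower, beside 15.7% and 15.9% of all genes. SNHG1 was higher by 0.39 (SE 0.04, limma adjusted p 2.49e-07), SNHG7 by 0.38 (SE 0.06, 8.11e-05) and SNHG16 by 0.23 (SE 0.06, 0.00832). SNHG6 (0.10), SNHG12 (0.14), GAS5 (-0.09) and ZFAS1 (-0.11) did not overlap between the sets but were not called, with limma adjusted p of 0.108 to 0.377. With the 3 called hosts, 5 hosts lay higher and 2 lower without overlap, beside 22.9% and 22.6% of all genes (45.5% together). ZFAS1 was called lower in replicates 4 to 6 when the sets were fitted alone (limma adjusted p 0.0345) and on the TPM scale (-0.16, 0.0204), and the SNHG16 call ended without unexposed replicate 3 (0.18, limma adjusted p 0.0569). SNHG8 (0.04) and SNHG5 (-0.01) overlapped. The step between the sets was thus larger than the change with exposure against all 6 unexposed libraries for SNHG1, SNHG7 and SNHG16. For SNHG6 and SNHG8 it was smaller. Set against 1 unexposed set alone, the change could exceed the step. It was 0.43 to 0.56 for SNHG1 against replicates 1 to 3 and reached -0.45 for SNHG7 against replicates 4 to 6. The grouping by replicate number follows earlier results of these data, so these p-values describe that split and carry no independent weight.

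**Figure D3:**
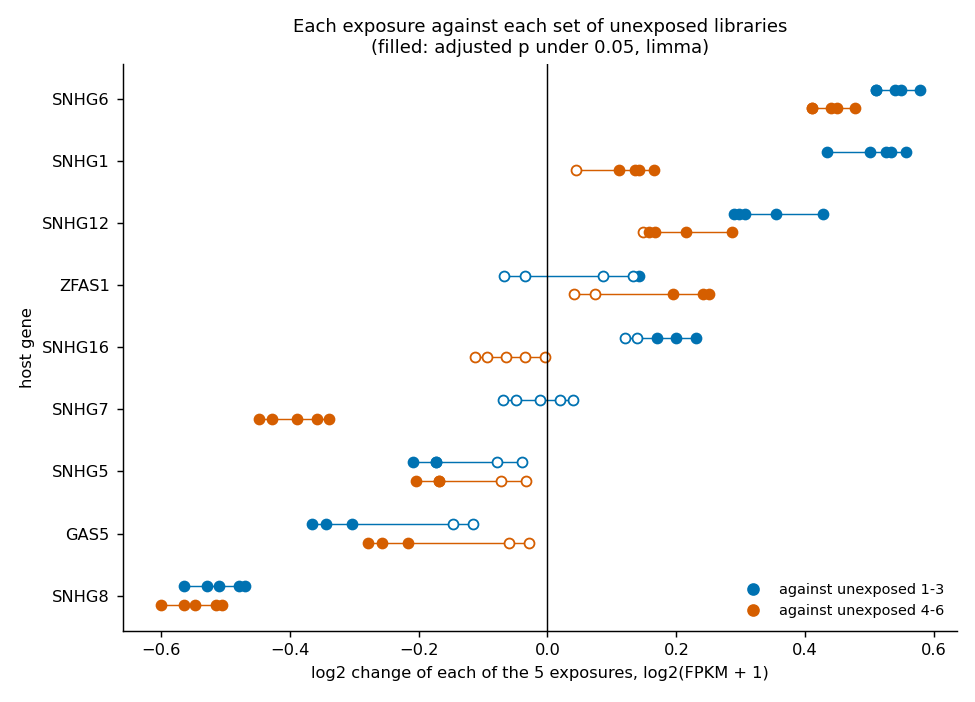
Changes of the 5 exposures on the log2(FPKM + 1) scale against unexposed replicates 1 to 3 (blue) and against replicates 4 to 6 (orange) for each tested host gene; each point is an exposure, and filled points have a limma adjusted p under 0.05. SNHG7 lies at -0.07 to 0.04 against the first set and at -0.45 to -0.34 against the second, SNHG1 at 0.43 to 0.56 and 0.04 to 0.17, while SNHG6 and SNHG8 are called on the same side of 0 against both.

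Each mixture was set against each of its components, where the concentration of the shared compound is the same. No unexposed library enters the difference itself. The SE and p-values do rest in part on unexposed libraries, since the spread was fitted over all 21 libraries in 6 groups. For SNHG1 the SE was 0.10 here and 0.04 for 3 against 3 libraries with the unexposed sets parted. GAS5 was higher in both mixtures than in each component, by 0.25 and 0.19 for glyphosate with 2,4-D (against glyphosate and against 2,4-D) and by 0.20 and 0.16 for AMPA with 2,4-D (against AMPA and against 2,4-D). The 95% intervals were 0.10 to 0.40, 0.04 to 0.34, 0.05 to 0.35 and 0.01 to 0.31. None passed the test over all genes, with limma adjusted p of 0.367, 1, 0.146 and 0.449. GAS5 libraries did not overlap in 3 of these 4 comparisons. SNHG5 differed by 0.10 to 0.13 and ZFAS1 by 0.05 to 0.21, with the lowest limma adjusted p at 0.238 and 0.172.

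In these 4 comparisons limma called 0 of the 9 hosts, where it called 0%, 0%, 2.71% (0.701% higher and 2.01% lower) and 0% of all genes in the order just given, and voom on recovered reads also called 0 hosts. At an unadjusted p under 0.05 the hosts numbered 3, 2, 3 and 1, all of them GAS5, SNHG5 or ZFAS1, beside 7.95%, 4.31%, 18.2% and 10.6% of all genes. Ranges did not overlap, with the mixture higher, for 5, 4, 3 and 1 hosts, beside 9.66%, 6.25%, 12.1% and 9.12% of all genes, and for 0 hosts with the mixture lower, beside 10.6%, 6.26%, 13.4% and 8.14% (20.3%, 12.5%, 25.5% and 17.3% in either direction). The comparisons share mixture libraries or 2,4-D libraries with one another and so are not separate observations. Whether 2,4-D added to glyphosate acts differently from 2,4-D added to AMPA was compared too, in a contrast chosen after the data were seen. It gave 0 called hosts and 0 with an unadjusted p under 0.05 in limma, beside 8.73% of all genes. For GAS5 that difference was 0.05 (95% interval -0.16 to 0.27) and for ZFAS1 0.04 (-0.15 to 0.24), so differences of either sign lie within the intervals. Glyphosate and AMPA were given at different concentrations, so their values stand side by side above and were not compared.

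Ribosomal protein genes, some of which also hold snoRNA genes, moved together where the hosts split. A start of C and at least 4 pyrimidines was seen in 60.3% of their windows and in 3 of the 8 host windows, where GAS5 had no match at RefSeq's start. Of 79 cytosolic ribosomal protein genes 70 to 77 were called higher in each exposure and 0 or 1 lower, with a median of 0.39 to 0.53, where 25 to 28% of all genes were called higher and 22.6 to 25.1% lower. The 29 that hold a snoRNA gene had 26 to 29 called higher (median 0.34 to 0.49), and the 50 that hold none had 44 to 48 (median 0.42 to 0.57). RPL39, a short protein of the large subunit's exit tunnel, rose by 0.71 to 0.83 and RPS15A, of the small subunit, by 0.62 to 0.78. RPL36A fell in 3 exposures (-0.33 to -0.18) at 1.19 FPKM in unexposed cells, and RPS10, at 0.927 FPKM, was not called (-0.02 to 0.18). Near-identical copies of many ribosomal protein genes could take part of their reads, so single values are uncertain. On the TPM scale 61 to 74 of the 79 were called higher, with a median of 0.27 to 0.39. Between the unexposed sets 64 of 79 were higher in replicates 4 to 6. RPL39 (0.42, limma adjusted p 0.00134) and RPS15A (0.35, 0.0114) were among them, while RPL36A and RPS10 were not called. The rises given for RPL39 and RPS15A are against all 6 unexposed libraries and so depend on the set.

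Summed over the 10 hosts the level was 549 ± 18.6 FPKM (SD, n = 6) in unexposed and 532 ± 21.1 (SD, n = 15 libraries of 5 exposures) in exposed cells, with overlapping ranges. Ribosomal protein genes made up 7.16 to 8.36% of all FPKM in unexposed and 9.14 to 10.2% in exposed libraries. The hosts' sum was therefore 2.35 to 2.64% of the ribosomal protein sum in unexposed libraries and 1.61 to 1.95% in exposed ones. That percentage is free of library scaling, and the groups did not overlap. It also differed between the unexposed sets, at 2.60 to 2.64% in replicates 1 to 3 and 2.35 to 2.39% in replicates 4 to 6. No test was made of it, since the hosts were chosen with results of these data known.

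**Figure D4:**
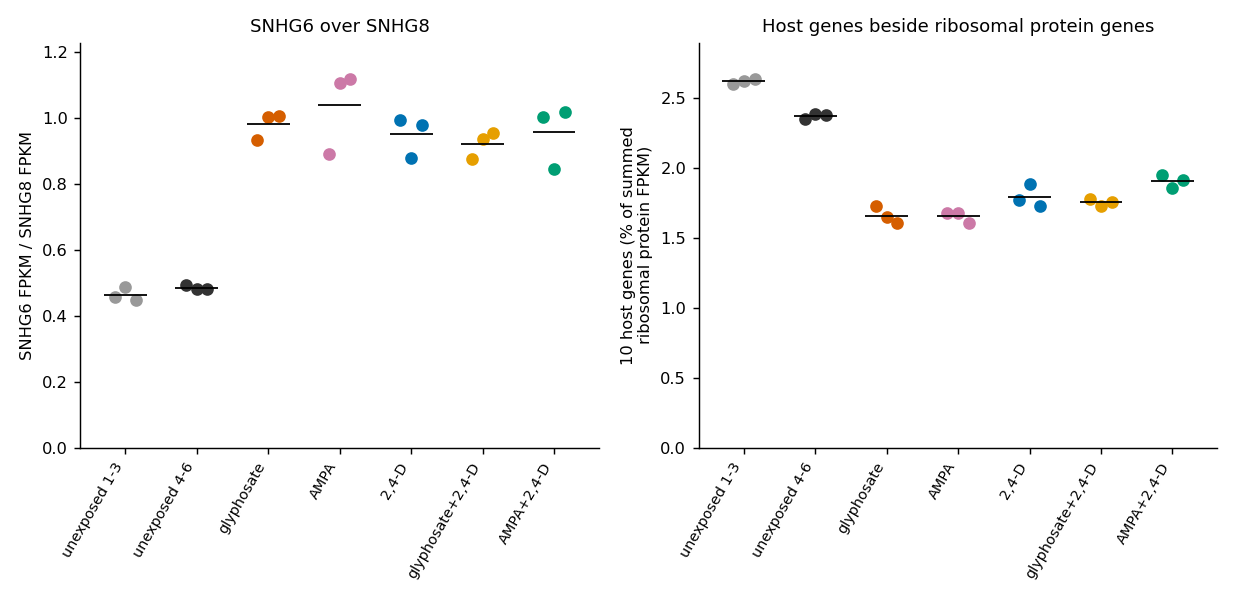
Quantities within each library, unaffected by library scaling: SNHG6 FPKM over SNHG8 FPKM (left) and the summed FPKM of the 10 hosts as a percentage of the summed FPKM of 79 ribosomal protein genes (right); points are libraries and bars means of 3. The ratio lies at 0.447 to 0.495 in unexposed and 0.847 to 1.12 in exposed libraries, and the percentage at 2.35 to 2.64 and 1.61 to 1.95.

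Of 24 other noncoding snoRNA hosts listed, 13 were tested. In each exposure 1 or 2 of them (7.69 to 15.4%) were called higher, beside 25 to 28% of all genes, and 3 to 6 (23.1 to 46.2%) lower, beside 22.6 to 25.1%, with a median of -0.15 to -0.11. The share called higher was thus below that of all genes, but with 13 genes tested it rests on 1 or 2 of them. Lower calls ran from the share of all genes upward, and their number depended on the unexposed set, as given below. SNHG17 rose in all 5 exposures (0.28 to 0.55) from 7.02 ± 0.664 FPKM (SD, n = 6). SNHG4 fell in all 5 (-0.41 to -0.29) from 7.94 ± 0.328 FPKM. SNHG26 fell in 4 (-0.56 to -0.17) and SNHG21 rose in 3 (0.08 to 0.66), both near 1 or 2 FPKM. On the TPM scale 6 to 9 of the 13 (46.2 to 69.2%) were called lower, beside 30.8 to 38.7% of all genes. Against unexposed replicates 1 to 3 alone 2 to 4 were higher and 1 to 4 lower, and against replicates 4 to 6 alone 1 or 2 were higher and 7 or 8 lower. In replicates 4 to 6 themselves, 5 of the 13 were higher than in 1 to 3 and 0 lower, beside 15.7% and 15.9% of all genes.

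Protein-coding hosts outside the ribosome had 21 to 23 of 34 tested genes called higher (61.8 to 67.6%, beside 25 to 28% of all genes) and 2 to 5 lower (5.88 to 14.7%, beside 22.6 to 25.1%), with a median of 0.16 to 0.27. EIF4A2, an RNA helicase of translation initiation, rose by 0.43 to 0.55 and NFRKB, a chromatin remodelling subunit, by 0.42 to 0.49. NOP14, a small-subunit assembly factor, fell by 0.29 to 0.37 in all 5, and RCC1, the exchange factor of Ran, fell in 4 (-0.22 to -0.06). EIF4A2 was already higher by 0.31 in unexposed replicates 4 to 6 than in 1 to 3 (limma adjusted p 1.41e-05). NFRKB, NOP14 and RCC1 were not called between these sets. On the TPM scale 12 to 21 of the 34 were higher (35.3 to 61.8%) and 5 to 10 lower (14.7 to 29.4%), beside 15.9 to 19.8% and 30.8 to 38.7% of all genes.

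Among proteins that bind or assemble snoRNAs, 8 to 11 of 19 were called higher (42.1 to 57.9%, beside 25 to 28% of all genes) and 1 to 3 lower (5.26 to 15.8%, beside 22.6 to 25.1%), with a median of 0.12 to 0.18. FBL, the methyltransferase of box C/D particles, rose by 0.46 to 0.57 from 42.2 ± 3.41 FPKM (SD, n = 6), and PIH1D1, a C/D assembly factor, by 0.36 to 0.53. GAR1, a core protein of box H/ACA particles, fell in 4 exposures (-0.32 to -0.05), and the assembly helicase RUVBL1 fell in 5 (-0.35 to -0.22). FBL (0.20, limma adjusted p 0.00493) and PIH1D1 (0.21, 0.0109) were already higher in unexposed replicates 4 to 6 than in 1 to 3. GAR1 and RUVBL1 were not called between these sets. The TPM scale gave 5 to 7 higher (26.3 to 36.8%) and 1 to 6 lower (5.26 to 31.6%), beside 15.9 to 19.8% and 30.8 to 38.7% of all genes.

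TOP mRNAs outside the ribosome had 11 to 14 of 19 called higher (57.9 to 73.7%, beside 25 to 28% of all genes) and 0 or 1 lower (median 0.17 to 0.27), with NACA, a chaperone subunit at the ribosome's exit, at 0.42 to 0.53. Between the unexposed sets 15 of the 19 were already higher in replicates 4 to 6 and 0 lower. Against replicates 1 to 3 alone 15 to 17 were higher and 0 lower with exposure, and against replicates 4 to 6 alone 10 or 11 were higher and 3 to 5 lower. The translation initiation factor gene EIF2S3 was called lower in 1 exposure (-0.19 to -0.04) and PABPC1, which binds poly(A) tails, in 0 (-0.12 to -0.02). On the TPM scale both were called lower in 5, and 9 or 10 of the 19 genes were called higher and 3 or 4 lower, beside 15.9 to 19.8% and 30.8 to 38.7% of all genes.

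Of 20 NMD factors 4 to 7 were called higher (20 to 35%) and 3 to 5 lower (15 to 25%), with a median of -0.03 to 0.02. These shares lie near those of all genes, 25 to 28% higher and 22.6 to 25.1% lower, and so are not a result about NMD factors. CASC3, of the exon junction complex, rose by 0.30 to 0.45 and the release factor gene ETF1 by 0.25 to 0.42, while SMG9 fell in 5 exposures (-0.25 to -0.19) and PNRC2 in 4 (-0.33 to -0.08). On the TPM scale 1 to 3 NMD factors were higher (5 to 15%) and 6 to 10 lower (30 to 50%), beside 15.9 to 19.8% and 30.8 to 38.7% of all genes.

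The growth-control list, of mTOR complexes and their regulators, had 7 to 9 of 15 genes called lower (46.7 to 60%, beside 22.6 to 25.1% of all genes) and 1 or 2 higher (6.67 to 13.3%, beside 25 to 28%), with a median of -0.19 to -0.10. RPTOR, the defining subunit of mTOR complex 1, fell by 0.50 to 0.56 from 6.11 ± 0.138 FPKM (SD, n = 6) and EIF4EBP2, a repressor of cap-dependent initiation, by 0.44 to 0.60 from 27.7 ± 0.768. RPS6KB1, the S6 kinase, rose by 0.33 to 0.40, and SESN1 was not called (0.12 to 0.21). The directions of RPTOR, EIF4EBP2 and RPS6KB1 were the same on the TPM scale in all 5 exposures. All of these lists were chosen with earlier results of the data known.

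**Figure D5:**
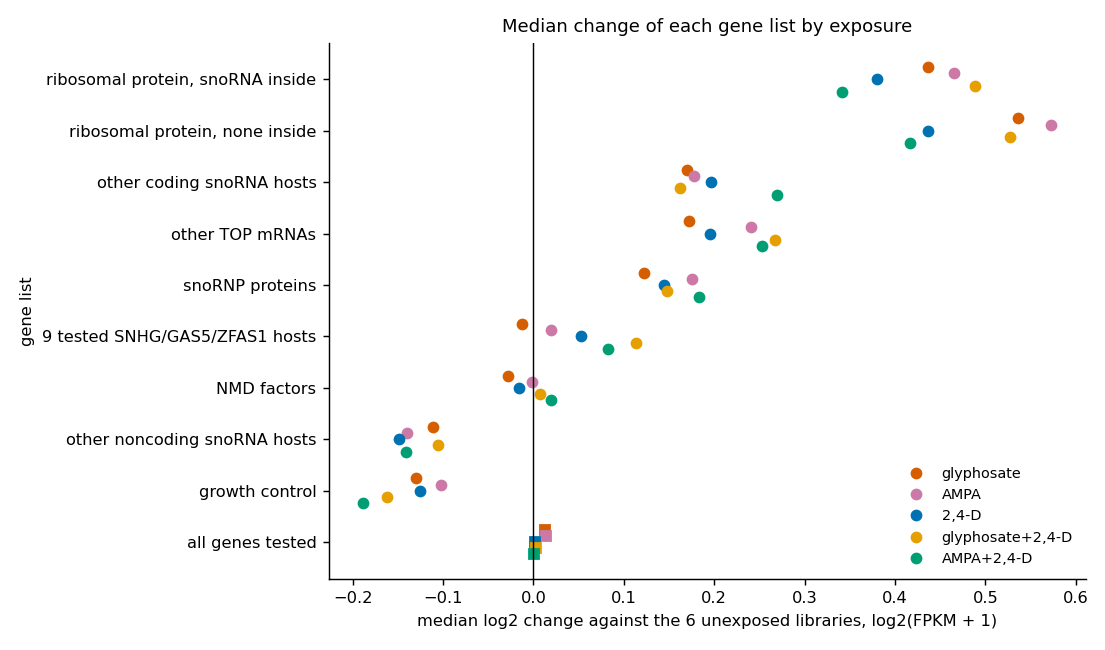
Median change of each gene list against the 6 unexposed libraries on the log2(FPKM + 1) scale, by exposure (colour); squares are the median of all 13405 genes tested. Ribosomal protein lists lie highest, at 0.34 to 0.57, the 9 tested hosts at -0.01 to 0.11, and the other noncoding snoRNA hosts at -0.15 to -0.11.

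The hosts did not vary as one group over the 21 libraries. Over the 36 pairs of tested hosts Pearson's r of log2(FPKM + 1) ran from -0.897 (SNHG6 with SNHG8) to 0.822 (SNHG5 with GAS5), with a median of 0.147. After each of the 7 group means was subtracted, with the unexposed sets apart, it ran from -0.518 (SNHG6 with SNHG7) to 0.810 (SNHG5 with SNHG6), with a median of 0.095. SNHG6 with ZFAS1 (0.783) and SNHG5 with ZFAS1 (0.760) came next, so within groups these 3 hosts, which differed in their change with exposure, were high and low in the same libraries. The points share libraries, their depth and their composition, so these correlations are descriptions.

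The genes whose level over the 21 libraries was most like the mean of the standardised hosts were PPP1CC (r = 0.811), a catalytic subunit of protein phosphatase 1, DEPDC1B (0.810), TPRKB (0.799), CCDC34 (0.795) and MTA3 (0.775). Over deviations from the 7 group means they were RPL36AL (0.830), NUP37 (0.822), IFT20 (0.819), CCDC150 (0.804) and RPL6 (0.778), of which RPL6 is on the ribosomal protein list. These 21 points share the groups and the scaling of the libraries.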

How the data were processed

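Total RNA was made into libraries with a SMARTer kit, per the labels' protocols. The strand is not given there. Per the submitters' processing notes HISAT2 2.0.5 and featureCounts 1.5.0-p3 were used with GRCh38, and the authors deposited FPKM in 6 tables. How FPKM were scaled is not given in the sources used here. Multiplied by gene length, FPKM came in whole steps of 1 read (100% of values within 0.1 of a read). Reads were recovered from these steps. The step implied library totals that exceeded the recovered reads by a factor of 1.03 to 1.08 in unexposed cells, where exposed cells had factors of 0.942 to 1.01. Gene models of the tables had the starts and ends of GENCODE release 29.

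Of 23375 genes in all tables, the 13405 that reached 1 FPKM in 3 or more libraries entered the tests. Values of log2(FPKM + 1) were fitted with limma 3.58.1 in R 4.3.3, by group means over all 21 libraries with a mean-variance trend, in 6 groups, or in 7 where the unexposed libraries were parted. Benjamini-Hochberg adjustment was made within each of 21 comparisons with calls at an adjusted p under 0.05. Such changes understate those of low genes. Samples were grouped by the treatment label. Replicate numbers did not pair libraries: over 45 same-numbered pairs the deviations from group means correlated at -0.119 to 0.088. The fit was also run on simulated data in which all 6 unexposed libraries had a common mean. That run does not cover the step between the unexposed sets. Other settings were TPM, median-of-ratios scaling, no filter, a pseudocount of 0.1, the compared groups alone, voom on recovered reads, replicate number as a block, either unexposed set left out and each library left out. TPM with the same genes was added after the data were seen.

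The host genes, the lists and the split of the unexposed libraries were chosen with earlier results of these data known. The text names all hosts, for each other list the 2 highest and 2 lowest tested members by mean change over exposures, the 5 genes most like the hosts over 21 libraries by each measure, and snoRNA genes inside a host listed in all tables. Promoter windows came from RefSeq, which matched 8 of 10 hosts by symbol, with no entry used for SNHG6 and SNHG15. No sequence of SNHG6 is reported here. A marker gene and an overlapping gene are not reported here.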

Additional observations from a re-analysis of the deposited data

How the results depend on the processing

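Against the 6 unexposed libraries, SNHG6 and SNHG8 kept their direction and call in all 95 combinations of exposure and alternative, at 0.33 to 0.58 and -0.75 to -0.45, with the highest limma adjusted p at 0.000538 and 0.000115. GAS5 kept its calls or their absence in 91 of 95, SNHG5, SNHG12 and SNHG16 in 89 each, SNHG1 in 82, ZFAS1 in 72 and SNHG7 in 64. These counts are weak on library scaling. Median-of-ratios factors ran only from 1.002 to 1.012, and voom used the library totals that FPKM imply. TPM was the setting that changed the scale, and all 4 changes of GAS5 were on it, with the mixtures. The number of called hosts moved by over 1.5 times in 2 comparisons. With 2,4-D against unexposed it fell from 8 to 5 when the compared groups were fitted alone. With 2,4-D against unexposed replicates 4 to 6 it fell from 8 to 5 on the TPM scale, with either set of genes. ZFAS1 reversed on the TPM scale with AMPA against unexposed (-0.15, limma adjusted p 0.0327, or 0.0287 with the same genes). It also did so with glyphosate and 2,4-D against unexposed replicates 1 to 3 (-0.012, 0.867 or 0.850). The cause was not tested beyond the rescaling itself. With a library left out, the calls against unexposed numbered 4 to 6 with glyphosate, 6 to 7 with AMPA, 6 to 8 with 2,4-D, 4 to 5 with glyphosate and 2,4-D and 4 to 6 with AMPA and 2,4-D. Mixtures against components had 0 called hosts in every alternative run.

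Replicate numbers are shared by groups but did not pair the libraries. The replicate block, which sets exposed libraries against unexposed replicates 1 to 3, called SNHG16 higher with 2,4-D (0.17), glyphosate and 2,4-D (0.23) and AMPA and 2,4-D (0.20). It no longer called ZFAS1 (0.09 and 0.13) or SNHG7 (-0.05 and -0.07) with 2,4-D and with AMPA and 2,4-D, and changed no other call against unexposed. SNHG15 and the snoRNA genes listed in all tables had at most 16 reads in a library. No change was read from them, and why their counts were low was not tested.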
